A study of Homo sapiens with 6 samples.

Results

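The 10 C-type lectin receptor genes CLEC7A, CLEC4A, CLEC4D, CLEC4E, CLEC5A, CLEC2B, CLEC12A, CLEC10A, CD209 and MRC1 were followed in macrophage-like THP-1 cells. They were chosen by name from the 57316 gene names in the count files, and all 10 were found. THP-1 is a human monocytic leukaemia line. All cells had received the phorbol ester PMA at 100 ng/ml for 48 h, which gives them macrophage features. For the next 24 h they received recombinant human CXCL10, a chemokine that binds the receptor CXCR3, at 100 ng/ml (3 libraries, replicates 1, 3 and 4) or control solution (3 libraries, replicates 1, 3 and 4). No library of cells without PMA was used here, so the levels belong to the PMA-treated state of a single leukaemia line. Whether each replicate came from its own culture is not given in the labels. All p-values therefore rest on the spread among these 6 libraries, and that spread may be technical.

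C-type lectin receptors are surface proteins of myeloid cells that bind glycans, lipids or proteins of microbes and of damaged or neighbouring cells. Some activate the kinase SYK, either through a tyrosine motif in their own tail or through the adaptors FCER1G and TYROBP. They signal on through CARD9, BCL10 and MALT1. Others carry inhibitory tyrosine motifs that recruit phosphatases such as PTPN6 and PTPN11, and a further group mainly takes up its ligands. In macrophages MRC1, CLEC10A and CD209 are known as genes that interleukin 4 induces, while CLEC4E and CLEC4D are known as genes that microbial products induce.

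The libraries held 34.8 M to 41.0 M reads. Control replicate 4 stood apart most clearly. Reads from ribosomal protein genes made up 7.67% of CXCL10 replicate 3, the smallest share, and 12.8% of control replicate 4, the largest, with the other 4 libraries between 8.40% and 9.85%. Control replicate 4 was the lowest library for 29.3% of the genes tested and the highest for 25.8%. CXCL10 replicate 3 was the lowest for 19.5% and the highest for 25.5%. For CXCL10 replicate 1 these shares were 21% and 17.4%. Control replicate 4 also had the fewest genes with a read, 21546, where the others had 23631 to 24807. Of 8 macrophage and monocyte markers, 7 had a mean of at least 1 TPM (a level scaled to gene length and to the total of its library), among them CSF1R at 871, CD14 at 461 and ITGAM at 84.2 TPM, and the 8 summed to 2051 to 2123 TPM with CXCL10 and 1890 to 2032 TPM in controls. The exception, CD68, was at 0.067 TPM, and 85.6% of its exon length is shared with other annotated genes, whose common reads were left out of the counts. Fibroblast, epithelial and T cell lists had 0 genes at a mean of 1 TPM, with EPCAM, KRT5 and CD2 at 0, as was MS4A1 of the B cell list. Of the 5 NK cell markers NKG7 and GNLY were present, and their list summed to 148 to 171 TPM with CXCL10 and 165 to 189 TPM in controls, while KLRD1 was at 0.0015 TPM and NCR1 at 0.071 TPM. Dendritic cell markers summed to 40.3 to 44.7 TPM with CXCL10 and 34.3 to 41.7 TPM in controls, and B cell markers to 3.70 to 3.98 TPM with CXCL10 and 3.32 to 4.36 TPM in controls. The part of these other genes in the results was not tested.

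The levels of the receptors differed widely among themselves, from 47.2 TPM for CLEC5A in CXCL10 replicate 3 to 0 reads for CLEC4D in every library. The mean over the 6 libraries was 30.9 TPM for CLEC5A, 17.7 for CD209, 6.94 for CLEC7A, 3.01 for CLEC2B, 1.25 for CLEC10A, 0.857 for MRC1 and 0.780 for CLEC12A. CLEC4E followed at 0.181, CLEC4A at 0.072 and CLEC4D at 0. CLEC5A alone thus held 50.1% of the summed TPM of the family, and CLEC5A, CD209, CLEC7A and CLEC2B took the first 4 places in this order in each of the 6 libraries. Between neighbours in the first 4 places, and between CLEC2B and CLEC10A, the ranges over libraries did not overlap. The ranges of CLEC10A, MRC1 and CLEC12A overlapped, so their order is not settled by these libraries, and the same holds for CLEC4E, CLEC4A and CLEC4D. The family summed to 56.9, 82.1 and 61.2 TPM in CXCL10 replicates 1, 3 and 4, against 57.5, 56.8 and 55.2 TPM in control replicates 1, 3 and 4. CXCL10 replicate 3 had the highest sum, with 57.5% of it from CLEC5A, and CXCL10 replicate 1 lay among the controls. Set among the 16531 genes with enough reads to be tested, CLEC5A had a higher TPM than 77.5% of them, CD209 than 67.3%, CLEC7A than 48.9% and CLEC12A than 14.4%.

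**Figure D1:**
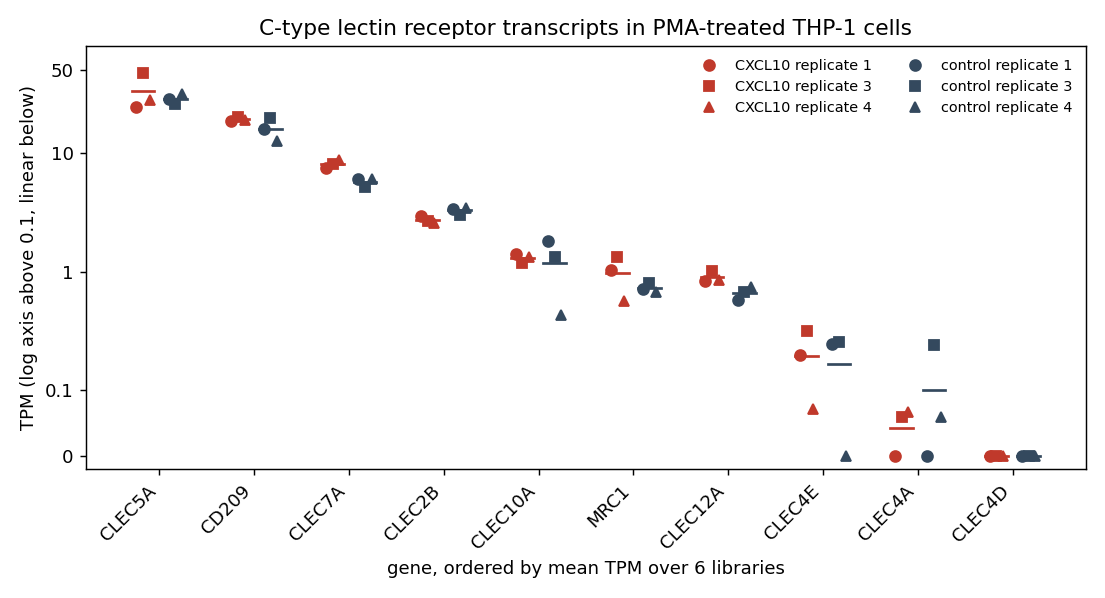
Levels in TPM of the 10 receptor genes on a log axis (linear below 0.1), with CXCL10 libraries in red left of control libraries in grey, 1 symbol per replicate number and a bar at each group's mean. Levels run from a mean of 30.9 TPM for CLEC5A to 0 for CLEC4D, and CXCL10 replicate 3 stands above the other libraries for CLEC5A at 47.2 TPM.

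The stretch around the RefSeq start of transcription (assembly GRCh38.p14, 250 bases before to 50 bases after it) was available for 4 of the 10 genes, CLEC5A, CD209, CLEC12A and CLEC4E. All 4 are shown because they were available, and their levels run from the most abundant receptor to a gene close to 0. CLEC5A lies at chr7:141946925-141947224 and CD209 at chr19:7747485-7747784, both on the minus strand. CLEC12A lies at chr12:9971159-9971458 on the plus strand and CLEC4E at chr12:8540856-8541155 on the minus strand. The CLEC12A stretch lies inside the counted gene, which begins upstream at base 9951316, so it is not at that gene's first annotated start. Each is printed 5′ to 3′ on the gene's strand, and capitals mark GAGGAA or its reverse complement TTCCTC, the core letters bound by PU.1, the myeloid factor that SPI1 encodes.
CLEC5A: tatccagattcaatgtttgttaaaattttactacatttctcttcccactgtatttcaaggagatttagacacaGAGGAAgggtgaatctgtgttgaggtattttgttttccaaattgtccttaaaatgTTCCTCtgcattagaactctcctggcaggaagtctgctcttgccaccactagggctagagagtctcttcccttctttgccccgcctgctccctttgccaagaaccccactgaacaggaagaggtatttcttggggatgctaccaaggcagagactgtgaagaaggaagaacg
CD209: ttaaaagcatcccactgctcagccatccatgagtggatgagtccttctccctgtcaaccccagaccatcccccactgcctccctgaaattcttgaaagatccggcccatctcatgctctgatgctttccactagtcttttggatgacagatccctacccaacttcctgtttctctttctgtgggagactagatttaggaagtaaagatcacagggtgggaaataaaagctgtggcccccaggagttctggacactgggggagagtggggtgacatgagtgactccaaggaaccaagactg
CLEC12A: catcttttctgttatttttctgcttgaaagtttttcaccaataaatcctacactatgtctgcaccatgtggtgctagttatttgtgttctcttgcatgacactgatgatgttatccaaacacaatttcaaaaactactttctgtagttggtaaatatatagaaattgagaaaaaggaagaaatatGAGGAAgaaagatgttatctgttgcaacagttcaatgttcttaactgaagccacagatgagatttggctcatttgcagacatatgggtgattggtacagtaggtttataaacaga
CLEC4E: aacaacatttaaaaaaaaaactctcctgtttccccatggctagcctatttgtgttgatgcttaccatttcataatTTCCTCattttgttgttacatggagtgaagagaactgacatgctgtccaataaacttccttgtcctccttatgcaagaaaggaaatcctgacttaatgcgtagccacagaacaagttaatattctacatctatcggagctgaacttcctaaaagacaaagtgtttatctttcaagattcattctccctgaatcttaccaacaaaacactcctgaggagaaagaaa
The PU.1 core was found 2 times in the CLEC5A stretch, 1 time in those of CLEC12A and CLEC4E, and 0 times in that of CD209. Of 35116 human promoter stretches of the same length, 27.9% held it on either strand. The AP-1 letters TGANTCA, which read the same on both strands, were in 7.7% of all stretches and in 0 of the 4. CLEC4E, with 1 match, was at 0.181 TPM and CD209, with 0, at 17.7 TPM, so the matches do not sort these 4 genes by level. A match describes letters and not binding.

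In the comparison of CXCL10 with control, which asks how a day with the chemokine alters macrophage-like cells, 0 of the 7 receptors that passed the filter on low counts passed the threshold. The quasi-likelihood test of edgeR, adjusted by the Benjamini-Hochberg method at a threshold of 0.05, called 0 of 16531 genes (0%), and the lowest adjusted p of any gene was 0.683. Without adjustment, 0 of the 7 receptors had an edgeR p under 0.05, against 7.14% of all genes (2.5% higher and 4.65% lower with CXCL10). DESeq2 and limma-voom also called 0 receptors, with 0 at an unadjusted p under 0.05 in each. The 7 genes were CLEC5A, CD209, CLEC7A, CLEC2B, CLEC10A, MRC1 and CLEC12A, while CLEC4E, CLEC4A and CLEC4D had too few reads for that filter. Of the 7, 6 had a log2 fold change above 0, where 54% of all genes did. Their median was 0.11, beside 0.02 for all genes tested, and a single gene, CLEC2B, lay below 0. The median was 0.18 without control replicate 4 and 0.24 without control replicate 3. In CPM (read counts scaled to library size with TMM factors) the groups did not overlap for 1 receptor higher with CXCL10 (CLEC7A; 5.76% of all genes) and 1 lower (CLEC2B; 6.48% of all genes). In TPM they did not overlap for CLEC7A and CLEC12A on the higher side (14.7% of all genes) and CLEC2B on the lower side (2.61%). The group means in TPM were 8.13 ± 0.648 with CXCL10 and 5.75 ± 0.532 in controls for CLEC7A, 0.897 ± 0.101 and 0.663 ± 0.0869 for CLEC12A, and 2.73 ± 0.179 and 3.29 ± 0.247 for CLEC2B (CXCL10 and control, SD, n = 3 each). In bulk RNA, fewer cells of a kind and less RNA per cell cannot be told apart.

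**Figure D2:**
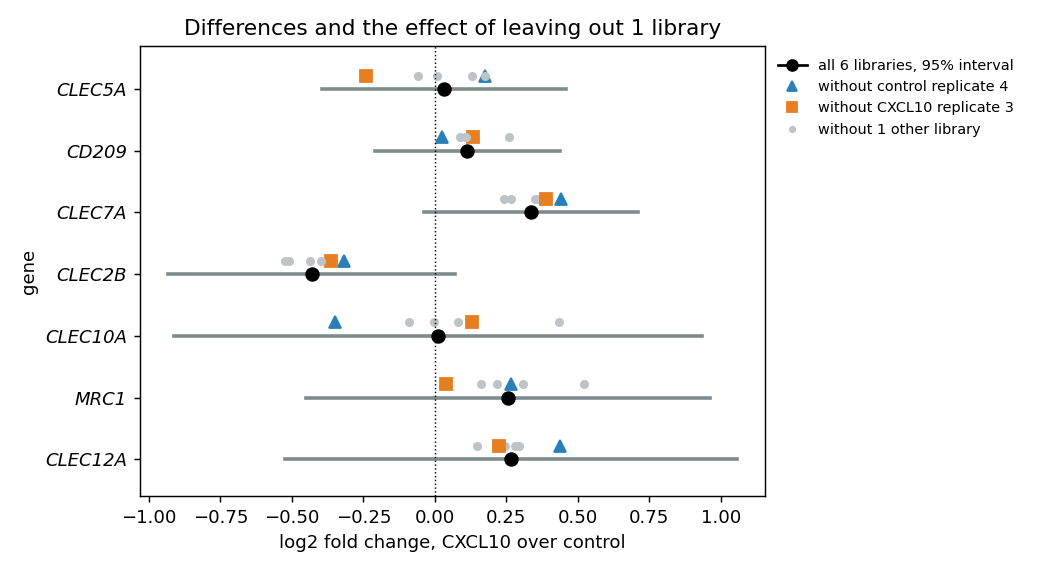
Log2 fold changes of the 7 tested receptors (CXCL10 over control) with 95% intervals from all 6 libraries in black and grey, and above each the values with 1 library left out. All 7 intervals include 0. CLEC7A, CD209, CLEC12A and MRC1 stay above 0 and CLEC2B below 0 whichever library is left out, and CLEC5A and CLEC10A change sign.

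Among the activating receptors, CLEC7A, also called Dectin-1, binds beta-glucans of fungal walls and signals to SYK through its own tail. It lies on chromosome 12 (10116777 to 10130258, hg38, minus strand), and none of its exons overlap another annotated gene. It measured 10.7, 10.3 and 12.001 CPM in CXCL10 replicates 1, 3 and 4, against 8.85, 7.33 and 9.90 CPM in control replicates 1, 3 and 4, from 395 to 442 reads with CXCL10 and 277 to 342 in controls. All 3 CXCL10 libraries lay above all 3 controls, though the gap between CXCL10 replicate 3 and control replicate 4 was small beside the spread within each group. The means were 11.0 ± 0.917 CPM with CXCL10 and 8.69 ± 1.29 CPM in controls (SD, n = 3 each). The log2 fold change was 0.34 ± 0.17 (SE, 95% interval -0.038 to 0.71), with an adjusted p of 0.702 by edgeR. Over the 15 other settings tried it ran from 0.24 to 0.44, with adjusted p from 0.463 to 0.999. Its unadjusted p, 0.0746 with all libraries, was 0.0298 when scaled by library size alone and 0.0242 without control replicate 4 by edgeR, where 6.96% and 3.79% of all genes also had one under 0.05.

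CLEC5A, also called MDL-1, was the most abundant receptor and is known to bind dengue virus and to signal through TYROBP and HCST. It lies on chromosome 7 (141927357 to 141947007, minus strand). It had 34.3, 58.9 and 37.4 CPM in CXCL10 replicates 1, 3 and 4, against 41.1, 36.1 and 50.6 CPM in control replicates 1, 3 and 4. The groups overlapped, with CXCL10 replicate 3 highest, control replicate 4 next and CXCL10 replicate 1 lowest. The log2 fold change was 0.03 ± 0.20 (SE, 95% interval -0.39 to 0.46, adjusted p = 0.982 by edgeR). Without CXCL10 replicate 3 it was -0.24, without control replicate 3 -0.058 and without control replicate 4 0.18. Reads numbered 1271 to 2540 with CXCL10 and 1364 to 1694 in controls. A stretch of its exons lies opposite MGAM, which had 12 to 40 reads.

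The pattern over libraries seen for CLEC5A was closely matched by other genes, though the order of the lower libraries differed. Among 8753 genes with a mean of at least 10 CPM, the 3 closest to CLEC5A in centred log2 CPM over the 6 libraries were RPS6KB1, NAA25 and RRM1, which encode a protein kinase, a subunit of an N-terminal acetyltransferase and the large subunit of ribonucleotide reductase. Their root mean square differences to CLEC5A were 0.031, 0.034 and 0.045 on the log2 scale, where the median gene had 0.33. RRM1 measured 85.9, 154 and 96.0 CPM in CXCL10 replicates 1, 3 and 4, against 104, 99.4 and 130 CPM in control replicates 1, 3 and 4. As for CLEC5A, CXCL10 replicate 3 and then control replicate 4 were the highest libraries for all 3 genes. These are the libraries with the smallest and the largest ribosomal protein share, and their part in the likeness was not tested.

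CLEC4E, or Mincle, which binds mycobacterial cord factor, and CLEC4D, its partner in the receptor complex with FCER1G, lie next to each other on chromosome 12 (8533305 to 8540963 and 8509475 to 8522366). CLEC4E had 6, 10 and 2 reads in CXCL10 replicates 1, 3 and 4, against 8, 8 and 0 reads in control replicates 1, 3 and 4. Both mates of a fragment were counted, so 2 reads can stand for 1 fragment, and the groups overlapped. CLEC4D had 0 reads in all 6 libraries. That allows up to 0.219 to 0.252 TPM per library, a limit of 3 fragments or 6 reads that covers counting error only. Neither gene passed the filter on low counts. Without that filter edgeR gave CLEC4E a log2 fold change of 0.09 ± 1.01 (SE) with an unadjusted p of 0.927, an error too wide to show a difference at this depth, and CLEC4D had no reads to test.

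Of the receptors with an inhibitory motif, CLEC12A (chromosome 12, 9951316 to 9995694, plus strand) is known to recognise uric acid crystals and to be carried by leukaemic myeloid cells. It had 34, 43 and 32 reads in CXCL10 replicates 1, 3 and 4, against 25, 28 and 32 reads in control replicates 1, 3 and 4. Scaled, these were 0.917, 0.997 and 0.897 CPM with CXCL10, against 0.647, 0.741 and 0.957 CPM in controls. Control replicate 4 lay among the CXCL10 libraries in CPM and below them in TPM, so whether the groups overlap depends on the scale. The log2 fold change was 0.27 ± 0.37 (SE, 95% interval -0.52 to 1.06, adjusted p = 0.889 by edgeR), with 0.15 without control replicate 1 and 0.44 without control replicate 4. Its interval was the single one among the 7 receptors to reach beyond a log2 fold change of 1 in size, and 74.4% of all genes tested had intervals within that bound.

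CLEC4A, or DCIR, the other inhibitory receptor (chromosome 12, 8123632 to 8138607), had 0, 1 and 1 reads in CXCL10 replicates 1, 3 and 4, against 0, 4 and 1 reads in control replicates 1, 3 and 4. It did not pass the filter on low counts, and without the filter its adjusted p was 0.894 by edgeR. Both groups lay under the limit of 6 reads, so no fold is given. Of its exon length 69.7% is shared with genes annotated on the same strand, AC006511.5 and AC092111.3, and reads over more than 1 gene were left out, so its level may be too low. AC006511.5 itself had 0 to 12 reads.

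The glycan-binding uptake receptors were led by CD209, or DC-SIGN, which binds mannose and fucose on microbes and ICAM3 on lymphocytes (chromosome 19, 7739993 to 7747564, minus strand). It had 27.6, 27.0 and 27.6 CPM in CXCL10 replicates 1, 3 and 4, against 24.3, 29.6 and 21.9 CPM in control replicates 1, 3 and 4. The CXCL10 libraries lay close together, with control replicate 3 above and the other controls below them. The means were 27.4 ± 0.378 CPM with CXCL10 and 25.3 ± 3.95 CPM in controls (SD, n = 3 each), and edgeR gave a log2 fold change of 0.11 ± 0.15 (SE) with an adjusted p of 0.883. With an interval from -0.21 to 0.44 it had the smallest SE of the 7. The value was 0.26 without control replicate 3 and 0.025 without control replicate 4. Its neighbour CLEC4M is a close copy, and reads that map to both were left out, so the level of CD209 may be too low. CLEC4M had 0 to 10 reads.

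CLEC10A, or MGL, which binds galactose and N-acetylgalactosamine (chromosome 17, 7074537 to 7080307, minus strand), was the most uneven of the 7 receptors that passed the filter. It had 44, 38 and 38 reads in CXCL10 replicates 1, 3 and 4, against 60, 42 and 14 reads in control replicates 1, 3 and 4, or 1.19, 0.881 and 1.07 CPM against 1.55, 1.11 and 0.419 CPM. The 2 extremes were both controls, and the CXCL10 libraries lay between them. Its coefficient of variation was 14.7% with CXCL10 and 55.6% in controls. The log2 fold change of 0.01 ± 0.43 (SE, 95% interval -0.91 to 0.94, adjusted p = 0.998 by edgeR) became -0.35 without control replicate 4 and 0.43 without control replicate 1. It was also below 0 without CXCL10 replicate 1, at -0.09, and without CXCL10 replicate 4, at -0.0031.

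MRC1, the mannose receptor CD206 (chromosome 10, 17809348 to 17911164, plus strand), had the reverse pattern of spread. It measured 1.83, 2.09 and 0.953 CPM in CXCL10 replicates 1, 3 and 4, against 1.29, 1.43 and 1.38 CPM in control replicates 1, 3 and 4, from 34 to 90 reads per library. Of the CXCL10 libraries 2 lay above all controls and replicate 4 below them. Its coefficient of variation was 36.6% with CXCL10 and 4.98% in controls. The log2 fold change was 0.26 ± 0.33 (SE, 95% interval -0.45 to 0.96, adjusted p = 0.880 by edgeR), with 0.52 when CXCL10 replicate 4 was left out, 0.04 when replicate 3 of that group was and 0.16 when its replicate 1 was.

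CLEC2B, or AICL, is a ligand rather than a pathogen sensor: it is bound by KLRF1 (NKp80) on natural killer cells. The gene lies on chromosome 12 (9852984 to 9870136, minus strand). It had 2.62, 2.13 and 2.22 CPM in CXCL10 replicates 1, 3 and 4, against 3.11, 2.699 and 3.59 CPM in control replicates 1, 3 and 4, from 79 to 97 reads with CXCL10 and 102 to 120 in controls. All 3 CXCL10 libraries lay below all 3 controls, with CXCL10 replicate 1 close under control replicate 3. The means were 2.32 ± 0.258 CPM with CXCL10 and 3.13 ± 0.445 CPM in controls (SD, n = 3 each). The log2 fold change was -0.43 ± 0.23 (SE, 95% interval -0.93 to 0.072), with an unadjusted p of 0.0873 and an adjusted p of 0.712 by edgeR. Over the 15 other settings it ran from -0.52 to -0.32, with adjusted p from 0.426 to 0.999 and 0 unadjusted p under 0.05. Of its exon length 18.2% lies opposite AC091814.1, which had 0 reads.

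**Figure D3:**
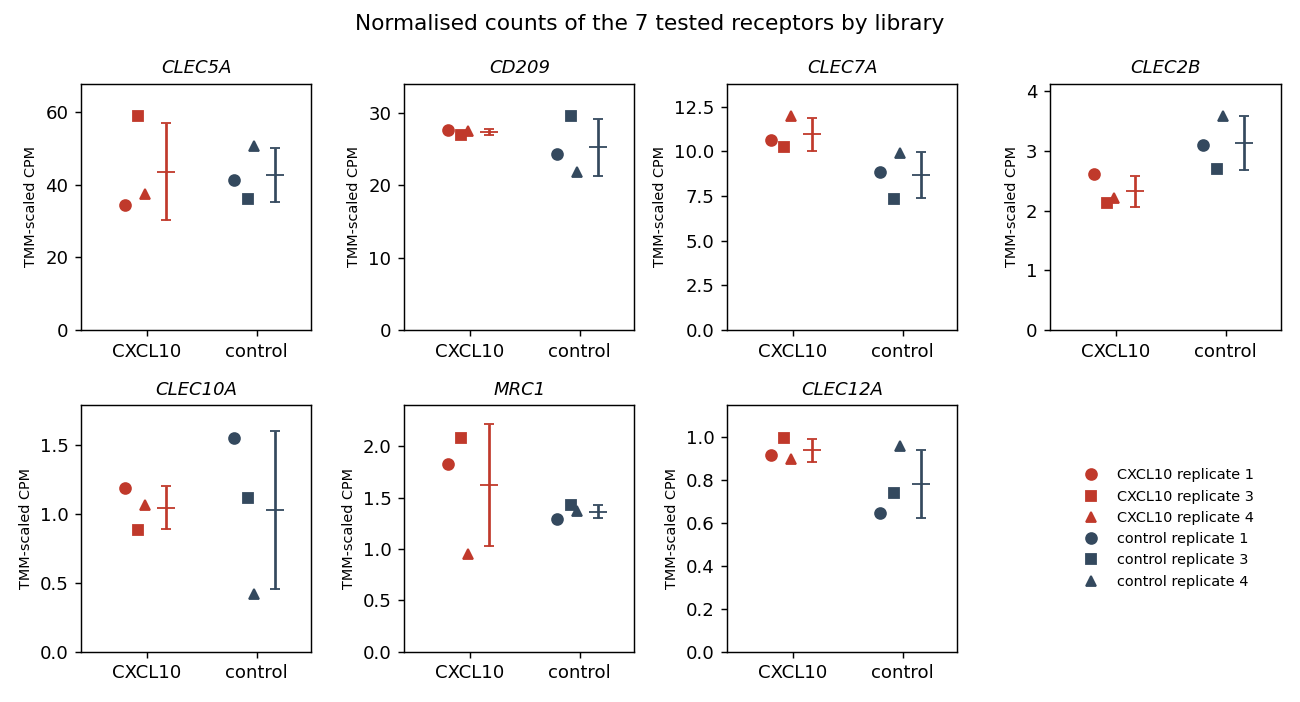
Normalised counts (TMM-scaled CPM, linear axes from 0) of the 7 tested receptors in each library, CXCL10 left of control, with mean and SD of 3 libraries beside the points. The groups separate for CLEC7A and CLEC2B, the controls of CLEC10A spread from 0.419 to 1.55 CPM, and the CXCL10 libraries of MRC1 from 0.953 to 2.09 CPM.

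Among the genes that carry the signal of these receptors, all 22 listed adaptors, kinases and phosphatases could be tested, and 0 passed in either direction. Their median log2 fold change was 0.12, with 14 of 22 above 0, where 54% of all genes were. Without control replicate 4 the median was 0.04, with 13 of 22 above 0. FCER1G, the adaptor of CLEC4E and CLEC4D, stood at 3112 ± 186 TPM with CXCL10 and 3395 ± 312 TPM in controls, and TYROBP, the adaptor of CLEC5A, at 1427 ± 195 TPM with CXCL10 and 1868 ± 469 TPM in controls (SD, n = 3 each). Both levels far exceeded those of the receptors, and both adaptors also serve other receptor families. SYK stood at 93.0 ± 1.70 TPM with CXCL10 and 75.0 ± 9.501 TPM in controls, with a log2 fold change of 0.16 in TMM-scaled counts. CARD9 stood at 44.95 ± 6.86 TPM with CXCL10 and 41.0 ± 7.55 TPM in controls, with a log2 fold change of -0.0089.

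The lowest p-values on this list belonged to HCST, TYROBP, LSP1 and FCER1G, with log2 fold changes of -0.89 ± 0.28, -0.56 ± 0.20, 0.33 ± 0.16 and -0.29 ± 0.14 (SE) and edgeR adjusted p of 0.683, 0.683, 0.701 and 0.702. TYROBP measured 506, 371 and 378 CPM in CXCL10 replicates 1, 3 and 4, against 523, 474 and 857 CPM in control replicates 1, 3 and 4. Control replicate 4 was the highest library for HCST, TYROBP and FCER1G. Leaving it out gave -0.44 for HCST, -0.25 for TYROBP and -0.15 for FCER1G on the log2 scale, and 0.44 for LSP1, which encodes an actin-binding protein of leukocytes. Control replicate 4 also had the highest ribosomal protein share, and the part of that library's composition was not tested. HCST lies opposite another gene over 50.1% of its exon length, so its level may be too low.

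Of 15 cytokine and early response genes known to follow SYK and CARD9, 11 could be tested, 0 passed, and the median log2 fold change was 0.08. IL1B, which encodes interleukin-1 beta, had 761, 774 and 1021 CPM in CXCL10 replicates 1, 3 and 4, against 1178, 1257 and 996 CPM in control replicates 1, 3 and 4. The groups overlapped because CXCL10 replicate 4 lay above control replicate 4. The log2 fold change was -0.42 ± 0.15 (SE) with an adjusted p of 0.683 in edgeR. CXCL1 and CCL3, both chemokine genes, had -0.33 ± 0.19 and -0.37 ± 0.22, and IL23A, a subunit gene of interleukin-23, had 0.63 ± 0.33 (0.35 without control replicate 4, its lowest library). CCL3 lies opposite another gene over 74.6% of its exon length, so its level may be too low. Without control replicate 4 IL1B was at -0.51, CXCL1 at -0.35 and CCL3 at -0.51. The median of the 11 genes was then -0.17, a change of sign.

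Of 9 genes for endogenous partners of the receptors, 7 could be tested and 0 passed, with a median of 0.09. ICAM3, a partner of CD209, measured 4.37 ± 1.19 CPM with CXCL10 and 2.73 ± 0.264 CPM in controls (SD, n = 3 each), with a log2 fold change of 0.68 ± 0.24 (SE, adjusted p = 0.683 by edgeR). Its groups did not overlap. Of the 7 tested, 1 was higher with CXCL10 without overlap (5.76% of all genes) and 2 lower (VIM and CD63, 6.48%). Over 75.4% of its exon length ICAM3 lies opposite another gene, so its level may be too low. PTPRC, which encodes CD45, a glycoprotein that CLEC10A binds, had 0.45 ± 0.16 (SE). VIM, the gene of the cytoskeletal protein vimentin, had -0.37 ± 0.15 and CD63, a tetraspanin gene, -0.30 ± 0.14, and they were -0.19 each without control replicate 4, which was their highest library.

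Upstream, 8 of 9 transcription factor and interleukin 4 pathway genes could be tested and 0 passed, with a median of 0.08. CEBPB, a myeloid transcription factor known to act at the mouse gene for Mincle, had 61.9 ± 6.94 CPM with CXCL10 and 78.1 ± 3.62 CPM in controls (SD, n = 3 each), a log2 fold change of -0.33 ± 0.13 (SE, adjusted p = 0.683 by edgeR) without overlap between groups. SPI1 had -0.17 ± 0.13, STAT6, the factor that interleukin 4 activates, 0.14 ± 0.14, and IL4R, a chain of its receptor, 0.15 ± 0.15. Without control replicate 4, the lowest library of both, STAT6 was at 0.039 and IL4R at 0.016, and the median of the list was 0.03.

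**Figure D4:**
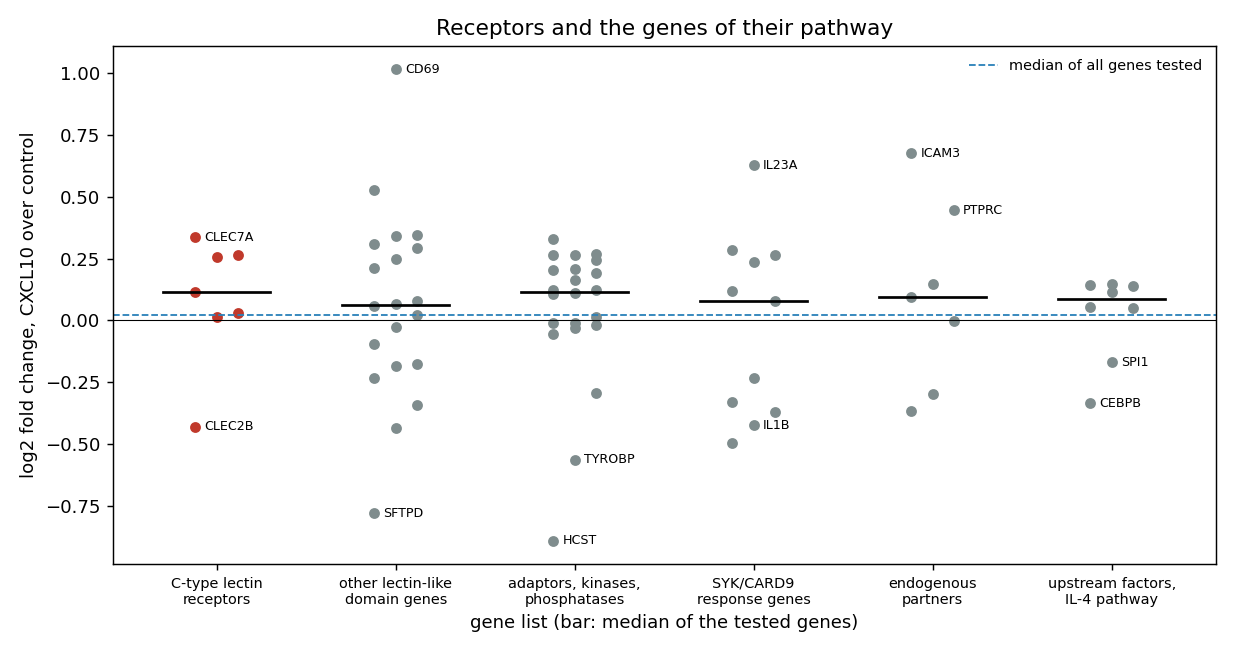
Log2 fold changes (CXCL10 over control) of the tested receptors in red and of the tested genes of 5 related lists in grey, with a black bar at each list's median and a dashed line at the median of all genes tested, 0.02. List medians lie between 0.06 and 0.12 with all 6 libraries, and the most distant genes are HCST at -0.89 and CD69 at 1.02.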

How the data were processed

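Polyadenylated RNA of 6 libraries was sequenced after a stranded Illumina library kit, per the labels. Trim Galore, STAR, Subread, featureCounts and hg38 are named in the submitters' processing notes. The authors deposited raw read counts per gene for each library, made with featureCounts 2.0.6 on exons of GENCODE 30, per the file headers. Paired mode without counting of pairs, no strand setting and the merging of genes by name are in that command line. Both mates were therefore counted, antisense reads were not separated, and reads over more than 1 gene or place were left out. Per the file headers, the deposited length column gives exon bases per gene name. Limits for a count of 0 cover counting error only.

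Groups came from the labels. R 4.3.3 with edgeR 4.0.16 was used for tests on the counts: filterByExpr, TMM factors, a quasi-likelihood fit on group over all 6 libraries, Benjamini-Hochberg adjustment over 16531 genes and a threshold of 0.05. SEs were derived from the fold change and its F statistic. TPM used the deposited counts and lengths. Log2 CPM used a prior count of 2. The fit was tested on simulated data. DESeq2 1.42.0, limma 3.58.1 (voom), other scalings and filters, a replicate block, removal of a length trend, halved counts, a threshold of 0.1 and each library left out in turn were alternatives. The members and lists were chosen with earlier results of these data known. All members are named, and from each other list up to 4 tested genes with the lowest p-value, with SYK, CARD9 and marker levels named for their role. The 3 genes most like the most abundant member are those with the smallest root mean square difference in centred log2 CPM. Each pair of libraries differed by more than sampling noise, and none was a copy of another.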

Additional observations from a re-analysis of the deposited data

How the results depend on the processing

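No receptor passed the adjusted threshold in any of the 15 alternative settings or at a threshold of 0.1. Genes called over the whole table stayed at 0 except without a filter on low counts, where edgeR called 137 genes (45 higher, 92 lower) and none of the receptors; the cause was not tested. The median of the 7 receptors was 0.19 when scaled by library size alone, and from 0.13 to 0.24 with 1 library left out. The number of receptors above 0 stayed at 5 to 6. CLEC5A turned to -0.015 with the gene length trend removed and ran from -0.24 to 0.18 with 1 library left out, and CLEC10A turned to -0.0024 with halved counts and ran from -0.35 to 0.43 with 1 library left out. Levels per gene length scaled by library totals in place of TPM gave the same order for all 10 genes. Both scales divide by gene length, so the order within a library could not change, and the match is no check of it. With at least 1 CPM required in 3 libraries CLEC12A was not tested. With the replicate number as a block edgeR called 0 genes and 0 receptors, with a receptor median of 0.13 and 6 above 0. Same-numbered libraries deviated from their group means with correlations of 0.026, 0.019 and -0.051 for numbers 1, 3 and 4. The labels name no shared culture or day, so whether same-numbered libraries belong together is not known. So few libraries per group cannot settle it. Depth limits CLEC12A, CLEC10A and MRC1, with 14 to 90 reads per library, and CLEC4E, CLEC4A and CLEC4D, which did not pass the filter on low counts. Without the filter CLEC4E and CLEC4A were tested and not called.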

Other observations

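Of 45 other genes with C-type lectin-like domains, CLEC11A, THBD and CD93 had higher mean levels than CLEC5A, and 10 had no reads. CLEC11A, which encodes a secreted growth factor of blood and bone cells, stood at 1202 ± 49.9 TPM with CXCL10 and 1227 ± 25.7 TPM in controls, and the membrane glycoprotein genes THBD and CD93 at 77.0 ± 7.52 and 60.5 ± 6.09 TPM with CXCL10 and 73.7 ± 2.78 and 51.8 ± 1.25 TPM in controls (SD, n = 3 each). Of the 45 such genes found, 20 could be tested and 0 passed in either direction by edgeR. Their median log2 fold change was 0.06 (0.11 without control replicate 4), and 12 lay above 0, where 54% of all genes did. At an unadjusted edgeR p under 0.05, 1 was higher and 1 lower, where 2.5% and 4.65% of all genes were. Those were CD69, an early activation marker, with 1.02 ± 0.47 and SFTPD, a collectin gene, with -0.78 ± 0.31 (SE), each with an adjusted p of at least 0.683 by edgeR. LY75, which shares 57.0% of its exon length with LY75-CD302, had 0.34 ± 0.17 and CLEC11A -0.19 ± 0.13 (SE). Without control replicate 4 CD69 was at 0.66 and SFTPD at -0.51.

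Levels were uneven among neighbours in the lectin gene region of chromosome 12. CLEC7A, at 6.94 TPM, lies beside OLR1, the receptor gene for oxidised low-density lipoprotein, at 14.5 TPM, and CLEC1A, at 0.11 TPM, while CLEC9A had 0 reads in all 6 libraries and CLEC12B 2 reads in all. CLEC2B, at 3.01 TPM, lies beside KLRF1, the gene of its receptor, at 1.55 TPM, and CLEC2A with 0 reads. In the region of CLEC4A, CLEC4D and CLEC4E, the other listed genes CLEC4C and CLEC6A had 0 reads as well.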
